A study of Mus musculus with 27 samples.

Results

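A group of 87 genes was higher in mouse uterus 2 h after a single injection of 17β-estradiol (E2, the main ovarian estrogen) and lower than in vehicle-treated uterus at 24 h, in each of 3 strains. The genes were selected on their own measured changes, from 22081 measured genes (0.394%), by 2 limits on group means: E2 2 h minus vehicle of at least 0.8 log2 and E2 24 h minus vehicle of at most -0.8 log2 in (B6 × C3H)F1, C3H and B6 mice. A level here is the log2 spot signal minus the array's 75th percentile, so 0 is that percentile and a change of 1 is a doubling. By themselves, the early limit was met by 1495 genes (6.77%) and the late limit by 2865 (13%).

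The animals were female F1 hybrid, C3H and B6 (C57BL/6) mice aged 8 weeks, all without ovaries for 1 to 2 weeks before the injection. The E2 groups of each strain received 40.0 µg per kg intraperitoneally in 0.1 ml saline with 0.25% ethanol and were collected after 2 h or 24 h, and the vehicle groups received the ethanol and saline alone. Each of the 9 groups had 3 arrays, 27 in all, and the E2 groups at both times were set against the same vehicle arrays. The labels name 3 animals per group without tying an array to an animal, so the spread between arrays may be in part technical. They give no collection hour for vehicle.

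Whole uterus was measured, so a change in the number of cells of a type and a change in RNA per cell cannot be told apart. Markers of the labelled tissue were present: all 12 markers of uterine epithelium, all 12 of endometrial stroma and all 10 of smooth muscle were measured, and none of these lists had a member among the 87 genes. The scanner software marked 72.3% to 79.4% of an array's probes as well above background, and replicate arrays correlated across genes at r = 0.988 to 0.996. Of the 87 genes, 60 were well above background on all 27 arrays. At 24 h, 16 genes in F1, 11 in C3H and 11 in B6 were not well above background on any array. The late fall had a bound of at least 1-fold for 8, 7 and 7 of these, a bound under 1 for 2, 1 and 2, and none for 6, 3 and 2 that were not well above background on any vehicle array either.

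Estradiol binds estrogen receptors, which act on chromatin and also set off kinase signalling, and in the rodent uterus the response runs in waves. Within hours, immediate early genes such as those of the FOS and EGR families rise together with water uptake and hyperaemia; about a day later the luminal epithelium synthesises DNA and makes secretory products. Immediate early transcripts are short-lived, and products of several of them feed back on the signalling that induced them.

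Because the limits use these very values, the changes at 2 h and at 24 h describe the group and were not tested; "rose" and "fell" are used of these genes in that sense. Where 3 changes stand together, they are those of F1, C3H and B6 uteri in that order, each from 3 E2 and 3 vehicle arrays. The median rise at 2 h was 1.34 log2 in F1, 1.35 in C3H and 1.43 in B6, where the median over all genes was -0.12, -0.13 and -0.09. The median change at 24 h was -1.26 in F1, -1.18 in C3H and -1.22 in B6, against all-gene medians of -0.04, -0.16 and -0.06. Between 24 h and 2 h the same genes differed by a median of -2.77, -2.60 and -2.92 log2.

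The early side spread further than the late one. Rises at 2 h lay between 0.86 and 6.12 in F1, 0.81 and 5.50 in C3H and 0.84 and 7.02 in B6, and they reached 4-fold in 21, 19 and 28 genes. Changes at 24 h ran only from -3.10 to -0.83 in F1, -2.47 to -0.81 in C3H and -2.40 to -0.81 in B6, and a 4-fold fall was reached by 8, 2 and 7 genes. The rise was the larger of the 2 changes in all 3 strains for 39 genes, and the fall was for 16.

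All 3 arrays at 2 h lay above all 3 vehicle arrays for 87 genes in F1, 87 in C3H and 86 in B6. Among all genes, 22.8%, 23.9% and 22.7% were called higher at 2 h, and 36.9%, 37% and 33.9% lower. All 3 arrays at 24 h lay below all vehicle arrays for 86, 85 and 83 genes, beside 37.1%, 40.4% and 37.4% of all genes called lower and 31.4%, 26.9% and 30.6% called higher. The called shares come from the limma test, a different measure, and overlap was not counted over all genes. The limits were set on these contrasts, and nothing is read from the counts.

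Nearest inside the limits stood 3 unnamed cDNAs: AK079147 (2 h change in C3H of 0.81), AK034700 (24 h change in B6 of -0.81) and AK043234 (24 h change in C3H of -0.81). Nearest outside stood Mier3 with -0.798 and AK051046 with -0.796 at 24 h in B6, and AI314760 with -0.795 at 24 h in C3H.

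**Figure D1:**
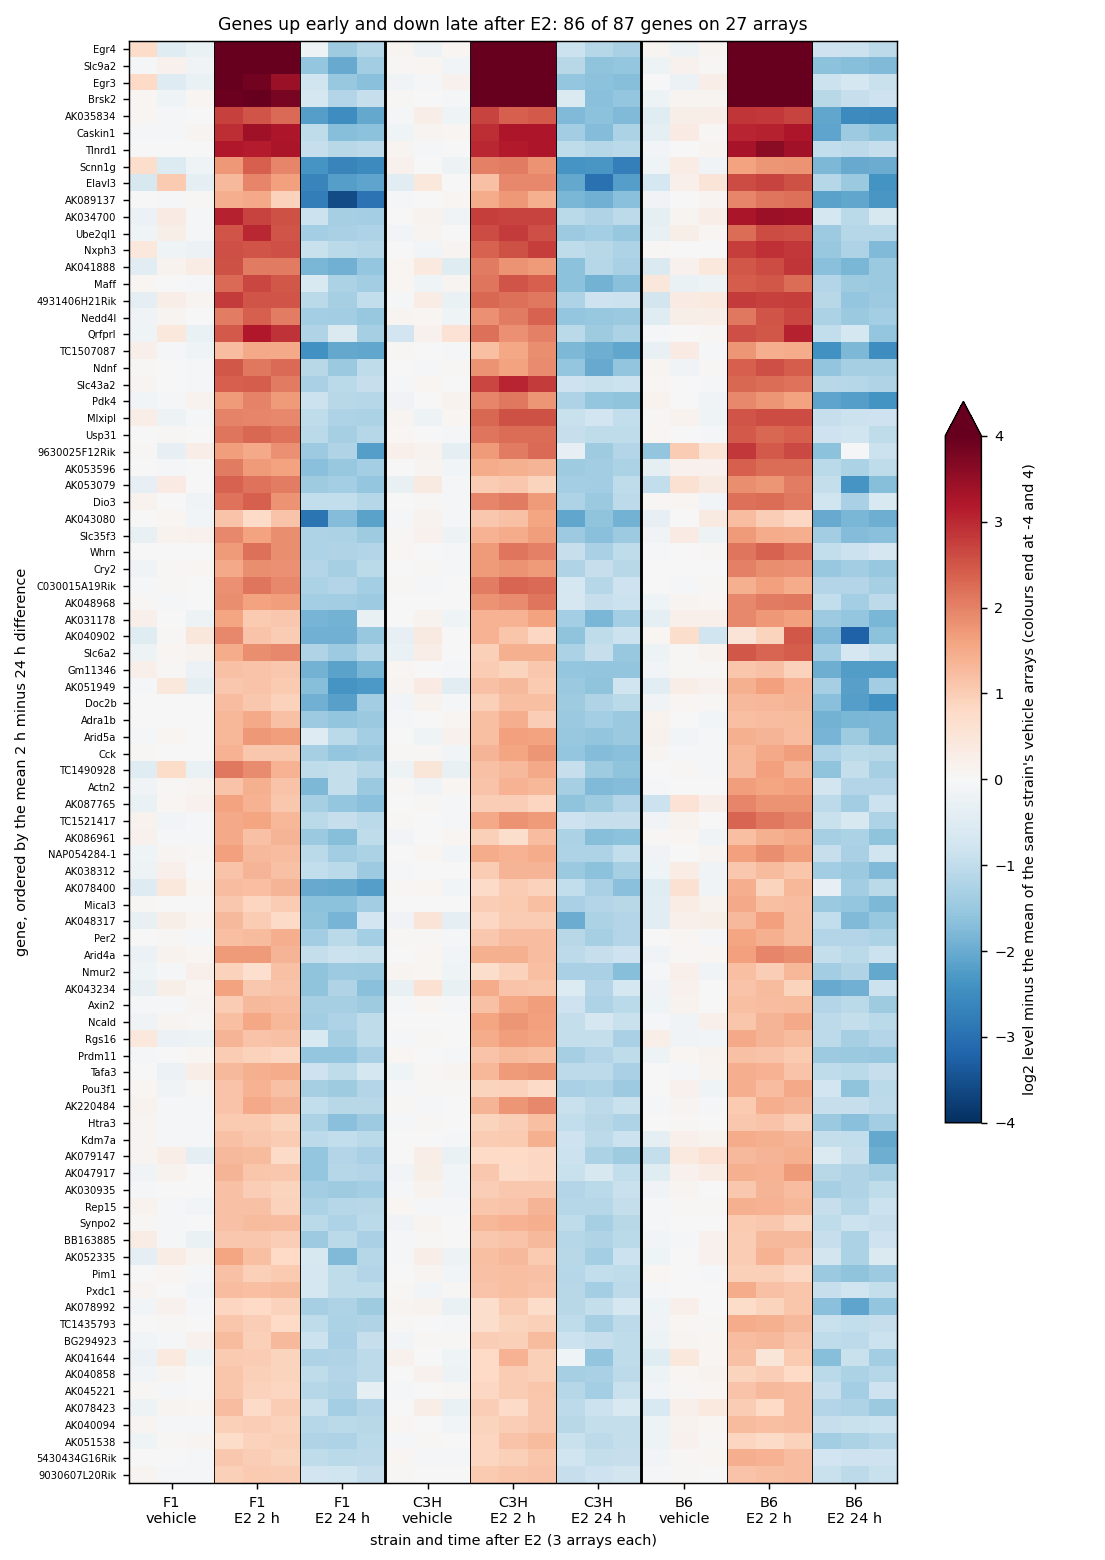
Each row is 1 of 86 of the 87 genes and each column 1 of the 27 arrays; colour is the log2 level minus the mean of the same strain's vehicle arrays, with colours ending at -4 and 4. The 2 h arrays are red and the 24 h arrays blue, as the limits require; Egr4, Slc9a2, Egr3 and Brsk2 are the darkest rows at 2 h, while AK089137, Scnn1g and Elavl3 are among the darkest at 24 h.

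Promoter sequences (250 bases before to 50 after the start site, RefSeq, GRCm38.p6) were found for 33 of the 48 genes with a name, in 41 promoters. Shown first is the gene with the largest swing, Egr4, whose promoter at chr6:85513540-85513839 (minus strand) held none of 7 exact motifs searched on both strands and is printed without capitals. Of 3 promoters of Maff, the one at chr15:79347270-79347569 (plus strand) held the most, with the cAMP response element TGACGTCA, the EGR site GCGTGGGCG and the E-box CACGTG at 29, 88 and 191 bases before the start, none overlapping. The promoters of Actn2 at chr13:12340683-12340982 (minus strand) and of Cck at chr9:121495645-121495944 (minus strand) are shown for the E-box, the motif found in the most genes. Capitals mark the motifs.

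Egr4: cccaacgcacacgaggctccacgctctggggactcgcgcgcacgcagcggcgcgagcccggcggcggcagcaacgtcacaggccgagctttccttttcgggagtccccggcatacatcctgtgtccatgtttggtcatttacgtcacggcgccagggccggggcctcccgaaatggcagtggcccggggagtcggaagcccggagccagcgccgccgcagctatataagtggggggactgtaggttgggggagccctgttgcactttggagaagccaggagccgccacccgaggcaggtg
Maff: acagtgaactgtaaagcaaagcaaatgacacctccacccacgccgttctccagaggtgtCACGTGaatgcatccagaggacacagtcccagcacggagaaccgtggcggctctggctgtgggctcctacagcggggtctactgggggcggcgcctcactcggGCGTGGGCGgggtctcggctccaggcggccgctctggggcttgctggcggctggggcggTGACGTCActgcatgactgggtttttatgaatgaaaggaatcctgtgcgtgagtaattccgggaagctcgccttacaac
Actn2: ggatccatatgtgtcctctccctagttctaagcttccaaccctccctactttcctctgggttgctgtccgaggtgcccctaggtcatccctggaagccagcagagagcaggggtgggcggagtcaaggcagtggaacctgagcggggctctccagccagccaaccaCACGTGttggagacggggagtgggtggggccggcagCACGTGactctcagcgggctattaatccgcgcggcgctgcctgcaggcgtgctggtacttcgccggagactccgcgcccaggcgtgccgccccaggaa
Cck: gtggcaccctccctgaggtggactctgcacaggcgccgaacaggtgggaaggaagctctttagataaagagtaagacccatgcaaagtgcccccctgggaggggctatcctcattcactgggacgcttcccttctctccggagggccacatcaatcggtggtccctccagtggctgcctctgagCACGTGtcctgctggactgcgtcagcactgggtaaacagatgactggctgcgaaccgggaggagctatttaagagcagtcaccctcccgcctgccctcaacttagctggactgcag

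The E-box CACGTG, a sequence bound by clock and MYC family factors, was found in 6 of the 33 genes (18.2%): Actn2, Cck, Maff, Mlxipl, Pim1 and Usp31. It was found in 8.09% of all 27025 genes with a promoter in the same table. The AP-1 site TGANTCA was found in 3 genes (9.09%, against 8.97% of all genes), and TGACGTCA and GCGTGGGCG only in Maff (3.03% each, against 2.03% and 0.707%). The palindromic estrogen, serum and glucocorticoid response elements had no match, and 0.074%, 0.0777% and 0.537% of all genes held one. The median GC content of these promoters was 64.7%, against 52.7% for all genes, and what it contributes to the matches was not tested.

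Transcription factors and chromatin regulators made up 9 of the 48 named genes. They include EGR zinc finger factors, the small MAF protein Maff, which pairs with other leucine zipper factors, the POU factor Pou3f1, the carbohydrate response factor Mlxipl and the histone demethylase Kdm7a. Their rises at 2 h ran from 0.86 to 7.02 log2, and their changes at 24 h from -1.72 to -0.82. In 6 of the 9 the rise exceeded the fall in every strain, and in 0 the reverse held.

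Egr4, an immediate early zinc finger factor, had the largest swing. In F1 uteri its level was -5.40, -6.62 and -6.39 in vehicle, 0.36, 0.08 and -0.49 at 2 h and -6.33, -7.55 and -7.26 at 24 h. C3H uteri gave -5.93, -6.26 and -5.96 in vehicle, -0.02, -0.71 and -0.92 at 2 h and -6.90, -7.19 and -7.35 at 24 h. B6 uteri gave -6.48, -6.78 and -6.47 in vehicle, 0.61, 0.66 and 0.05 at 2 h and -7.40, -7.45 and -7.61 at 24 h. Every 2 h array stood far above every other array of its strain, whereas at 24 h the F1 arrays overlapped those of vehicle.

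The rise of Egr4 was 69.4-fold in F1, 45.3-fold in C3H and 129.5-fold in B6 (SE 0.32 log2, n = 3 arrays per group). The change at 24 h was -0.92 log2 in F1 and -1.10 in C3H, where 1 of 3 arrays was still well above background in each. In B6 no 24 h array was, and the gene was at least 1.3-fold lower than in vehicle. Signal near background thus bounds how far the late fall of Egr4 can be measured.

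Egr3, of the same family, rose by 3.79 log2 in F1, 4.11 in C3H and 4.63 in B6 (SE 0.26) and stood at -1.33, -1.63 and -0.82 at 24 h, well above background on every array. In F1 its vehicle arrays ran from -4.19 to -2.89 and its 24 h arrays from -5.36 to -4.47, so these 2 groups did not overlap. A dimmer Egr3 probe changed by 1.805, 1.3523 and 1.9525 at 2 h and by only -0.2351, -0.785 and -0.1035 at 24 h. Maff showed the same course as the Egr3 probe used, at a brighter level. In F1 it was 0.61, 0.51 and 0.49 in vehicle, 2.82, 3.22 and 3.02 at 2 h and -0.08, -0.72 and -0.84 at 24 h. In C3H it was 0.65, 0.38 and 0.66 in vehicle, 2.71, 3.09 and 2.94 at 2 h and -1.07, -1.32 and -1.10 at 24 h. In B6 it was 0.77, 0.05 and 0.12 in vehicle, 2.72, 2.80 and 2.54 at 2 h and -0.86, -1.11 and -1.17 at 24 h. The 3 groups of Maff were separate in every strain, with changes of 2.48, 2.35 and 2.38 at 2 h and -1.08, -1.72 and -1.36 at 24 h in F1, C3H and B6 (SE 0.18).

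Egr3, Egr4 and Maff belong to a list of 24 immediate early transcription factor genes, of which 23 were measured. Each of the 23 passed the test as higher at 2 h in each strain, with a median of 2.50 log2 in F1, 2.62 in C3H and 2.38 in B6. At 24 h, by contrast, 3 were higher and 9 lower in F1, 1 and 12 in C3H and 3 and 10 in B6, with medians of -0.20, -0.38 and -0.16. The share called lower at 24 h was 39.1%, 52.2% and 43.5%, against 37.1%, 40.4% and 37.4% of all genes. Fos, the founding member of its family, changed by 5.16, 5.59 and 5.20 at 2 h and by 0.42, 0.46 and 0.44 at 24 h, so it does not meet the late limit. Egr1 changed by 2.65, 2.92 and 2.61 and then by -0.79, -1.26 and -0.48, and met the late limit in C3H alone.

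**Figure D2:**
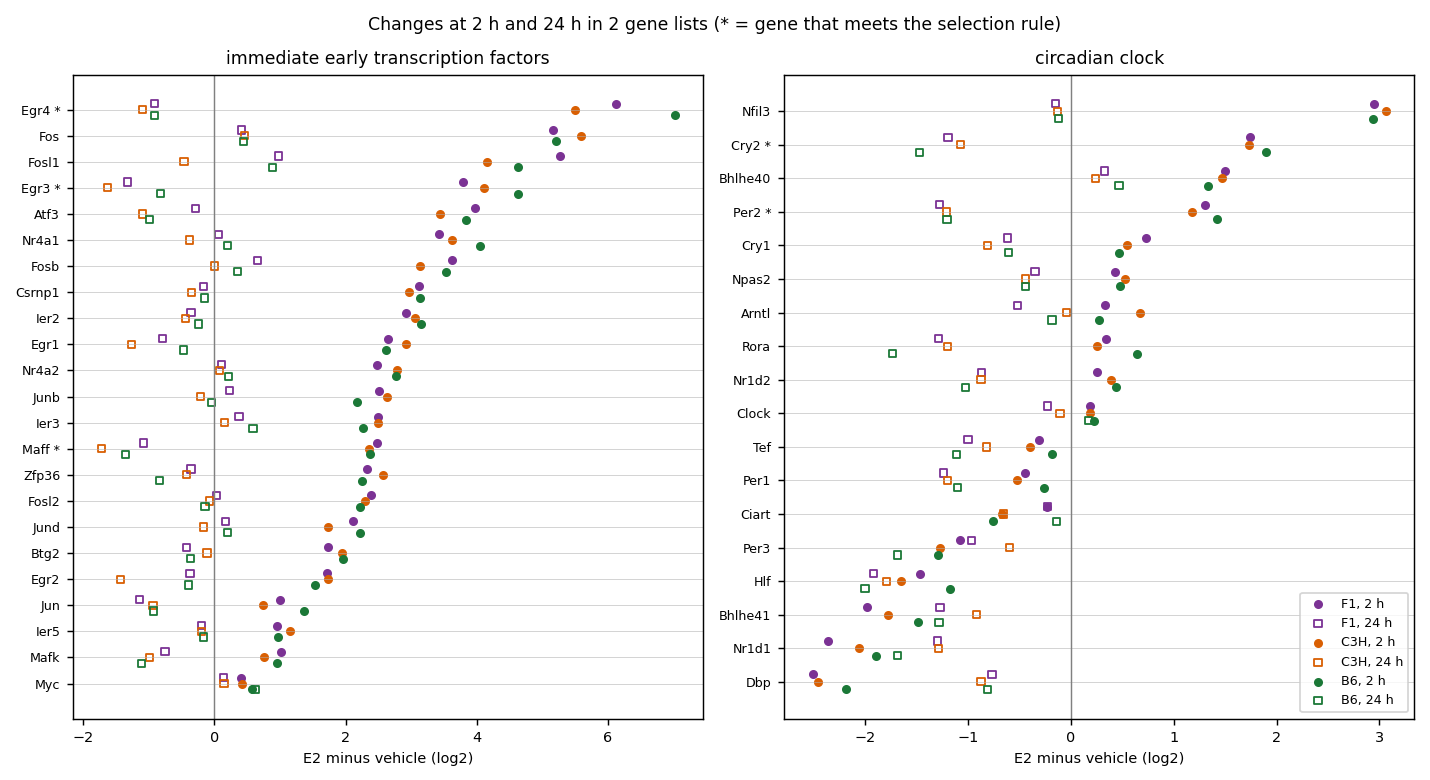
The x axis is the log2 change from vehicle of each gene in 2 lists, immediate early transcription factors (left) and circadian clock genes (right); filled circles are 2 h, open squares 24 h, colours are strains, and an asterisk marks genes among the 87. Immediate early genes share the rise at 2 h. At 24 h their median changes are -0.20 in F1, -0.38 in C3H and -0.16 in B6. Of the 23 genes, 9, 12 and 10 passed the test as lower at 24 h and 3, 1 and 3 as higher. Egr4, Egr3 and Maff meet both limits, and in the clock list Cry2 and Per2 do.

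Other factors were also in the group. Mlxipl, which drives glycolytic and fat-synthesis genes in liver, rose by 1.97 in F1, 2.46 in C3H and 2.58 in B6 and stood at -1.18, -0.87 and -0.87 at 24 h (SE 0.11). Arid5a, an RNA-binding protein known to stabilise cytokine transcripts, changed by 1.58, 1.48 and 1.34 and then by -0.98, -1.53 and -1.68. A dimmer Arid5a probe stood at -0.24, -0.77 and -0.76 at 24 h. Pou3f1, Arid4a, Prdm11 and Kdm7a rose by 0.86 to 1.82 across the strains.

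Genes of ion and solute transport held the second largest swing and, in F1 and C3H, the deepest late fall of a named gene. Slc9a2 encodes NHE2, a sodium-hydrogen exchanger of epithelial membranes. In F1 its level was -2.75, -2.53 and -2.87 in vehicle, 1.86, 2.08 and 1.69 at 2 h and -4.28, -4.73 and -4.11 at 24 h. C3H uteri gave -2.82, -2.80 and -2.97 in vehicle, 1.72, 1.99 and 2.02 at 2 h and -3.99, -4.47 and -4.42 at 24 h. B6 uteri gave -3.04, -2.68 and -2.81 in vehicle, 1.94, 2.02 and 2.26 at 2 h and -4.49, -4.54 and -4.62 at 24 h. The 3 groups were separate in each strain, a 24.1-, 27.4- and 30.2-fold rise in F1, C3H and B6 followed by a 3.14-, 2.69- and 3.27-fold lower level at 24 h than in vehicle (SE 0.15 log2).

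The late fall of Slc9a2 depended on the probe. A dimmer probe of the gene showed rises of 4.10, 4.23 and 3.99 at 2 h, while its changes at 24 h were 0.07, -0.21 and 0.52. The brighter probe was the one used throughout.

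Scnn1g encodes the gamma subunit of the epithelial sodium channel, which reabsorbs sodium from luminal fluid. In F1 its level was -4.29, -5.56 and -5.16 in vehicle, -3.28, -2.62 and -3.06 at 2 h and -7.36, -7.65 and -7.55 at 24 h. In C3H it was -4.56, -4.72 and -4.93 in vehicle, -2.73, -2.65 and -2.94 at 2 h and -7.10, -7.07 and -7.47 at 24 h. In B6 it was -5.45, -4.99 and -5.42 in vehicle, -3.69, -3.53 and -3.49 at 2 h and -7.09, -7.29 and -7.27 at 24 h. No 24 h array was well above background in any strain, so the late fall was at least 3.29-fold in F1, 5.02-fold in C3H and 3.09-fold in B6, after rises of 4.04-, 3.90- and 3.29-fold.

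Nedd4l, a ubiquitin ligase that removes the same sodium channel from the cell surface, moved in the same direction as its substrate at both times. It changed by 2.15, 2.09 and 2.42 at 2 h and by -1.42, -1.51 and -1.37 at 24 h in F1, C3H and B6 (SE 0.17), bright on every array and with no overlap between groups. A dimmer Nedd4l probe changed by 0.69, 0.78 and 0.44 at 2 h and by -0.21, -0.37 and -0.50 at 24 h. Other genes of the ubiquitin system were Usp31, a deubiquitinase, with rises of 2.20 to 2.38 and late changes of -1.18 to -0.88, and Ube2ql1, related to ubiquitin-conjugating enzymes, with rises of 2.47 to 2.68 and late changes of -1.44 to -1.24. In all 3 the rise exceeded the fall in every strain. Another Usp31 probe stood at 0.02, -0.09 and 0.44 at 24 h, so its late fall depended on the probe.

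Slc43a2, a transporter of large neutral amino acids, rose by 2.30, 2.85 and 2.24 and stood at -1.10, -0.86 and -1.14 at 24 h. A dimmer Slc43a2 probe stood at -0.38, -0.24 and -0.33 at 24 h. Slc35f3, of another solute carrier family, rose by 1.79, 1.52 and 1.55 and then stood at -1.30, -1.53 and -1.59. A list of 30 solute carriers of amino acids, glucose and ions, with Slc9a2 as its 1 gene of the group, gave 10 higher and 9 lower at 2 h in F1, 10 and 11 in C3H and 10 and 10 in B6, or 33.3% higher in each strain and 30% to 36.7% lower, near the shares of all genes (22.7% to 23.9% and 33.9% to 37%). At 24 h 13, 13 and 14 were higher and 10, 9 and 6 lower. The share higher was 43.3% to 46.7%, against 26.9% to 31.4% of all genes. The share lower was 20% to 33.3%, against 37.1% to 40.4%.

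The uterus is densely supplied by sympathetic nerves, and genes of noradrenaline handling were in the group. Slc6a2, the noradrenaline transporter that takes the transmitter back up, differed most between strains. In F1 its level was -0.24, 0.05 and 0.09 in vehicle, 1.47, 1.82 and 1.88 at 2 h and -1.23, -1.47 and -1.18 at 24 h. C3H uteri gave -1.14, -0.61 and -0.88 in vehicle, 0.08, 0.55 and 0.54 at 2 h and -2.16, -1.81 and -2.40 at 24 h. B6 uteri gave 0.33, 0.58 and 0.65 in vehicle, 3.01, 2.84 and 2.94 at 2 h and -0.88, -0.15 and -0.38 at 24 h. The C3H arrays were the lowest and the B6 arrays the highest at every stage, with F1 between them and no overlap between C3H and B6.

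Adra1b, an alpha-1 adrenergic receptor that couples to calcium release, changed by 1.34, 1.22 and 1.24 at 2 h and by -1.51, -1.44 and -1.84 at 24 h in F1, C3H and B6 (SE 0.10). The 3 groups of arrays were separate in every strain. Other adrenergic receptors on the array did otherwise: Adra2a changed by -2.43, -2.42 and -2.59 at 2 h and by -1.45, -1.26 and -1.97 at 24 h, and Adrb1 by -0.91, -0.98 and -0.30 at 2 h.

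Peptide signalling was represented by Cck, the gut and brain peptide cholecystokinin, Nmur2, a receptor of neuromedin peptides, Qrfprl, a predicted receptor of the RFamide peptide group, and Rgs16, which speeds the switching-off of G proteins. Rgs16 changed by 1.23, 1.59 and 1.38 at 2 h and by -0.98, -1.07 and -1.18 at 24 h. Nmur2 changed by 0.93, 0.94 and 1.17 and then by -1.52, -1.43 and -1.55, the fall being the larger in every strain. Cck depended on the probe: its other probe changed by 0.01, -0.60 and 0.45 at 2 h and by 0.06, -1.69 and 0.51 at 24 h. Qrfprl was well above background on no vehicle or 24 h array and on all 9 arrays at 2 h, a rise of at least 3.98-fold in F1, 1.91-fold in C3H and 6.31-fold in B6. A list of 35 G protein-coupled receptors and RGS proteins, with Rgs16 among them, had 7 genes called higher and 16 lower at 2 h in F1, 11 and 17 in C3H, and 10 and 18 in B6. These are 20% to 31.4% higher and 45.7% to 51.4% lower, where all genes gave 22.7% to 23.9% and 33.9% to 37%.

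Clock genes were represented by Per2 and Cry2, which together repress the CLOCK and ARNTL activator. In F1 Per2 was 0.68, 0.70 and 0.56 in vehicle, 1.85, 1.92 and 2.09 at 2 h and -0.73, -0.44 and -0.72 at 24 h. In C3H it was 0.80, 0.80 and 0.66 in vehicle, 1.82, 1.99 and 1.99 at 2 h and -0.36, -0.57 and -0.42 at 24 h. In B6 it was 0.59, 0.70 and 0.56 in vehicle, 2.19, 2.03 and 1.89 at 2 h and -0.56, -0.55 and -0.65 at 24 h. The strains gave nearly the same values, with changes of 1.31, 1.18 and 1.42 at 2 h and -1.28, -1.21 and -1.20 at 24 h (SE 0.09). A dimmer Per2 probe gave 0.08, -0.68 and 0.03 at 24 h.

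Cry2 rose by 1.74, 1.73 and 1.90 and stood at -1.20, -1.07 and -1.47 at 24 h (SE 0.09), and its other probe met both limits as well. In the list of 18 clock genes, 9 passed the test as higher and 7 as lower at 2 h in F1, 10 and 7 in C3H and 9 and 5 in B6, or 50% to 55.6% higher against 22.7% to 23.9% of all genes. At 24 h only 1, 1 and 2 were higher, whereas 14, 13 and 13 were lower (72.2% to 77.8%, against 37.1% to 40.4% of all genes), with medians of -0.92, -0.85 and -1.06. Nfil3, a repressor of the clock's D-box genes, rose by 2.95, 3.06 and 2.94 at 2 h, while Dbp, an activator of the same genes, stood at -2.51, -2.46 and -2.19 and Nr1d1 at -2.36, -2.06 and -1.89. Per1 changed by -0.45, -0.53 and -0.26 at 2 h, which did not pass the test in B6, and by -1.24, -1.20 and -1.11 at 24 h, which passed in every strain. Because the hour of collection of the vehicle uteri is not given, time of day and E2 cannot be told apart for these genes.

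**Figure D3:**
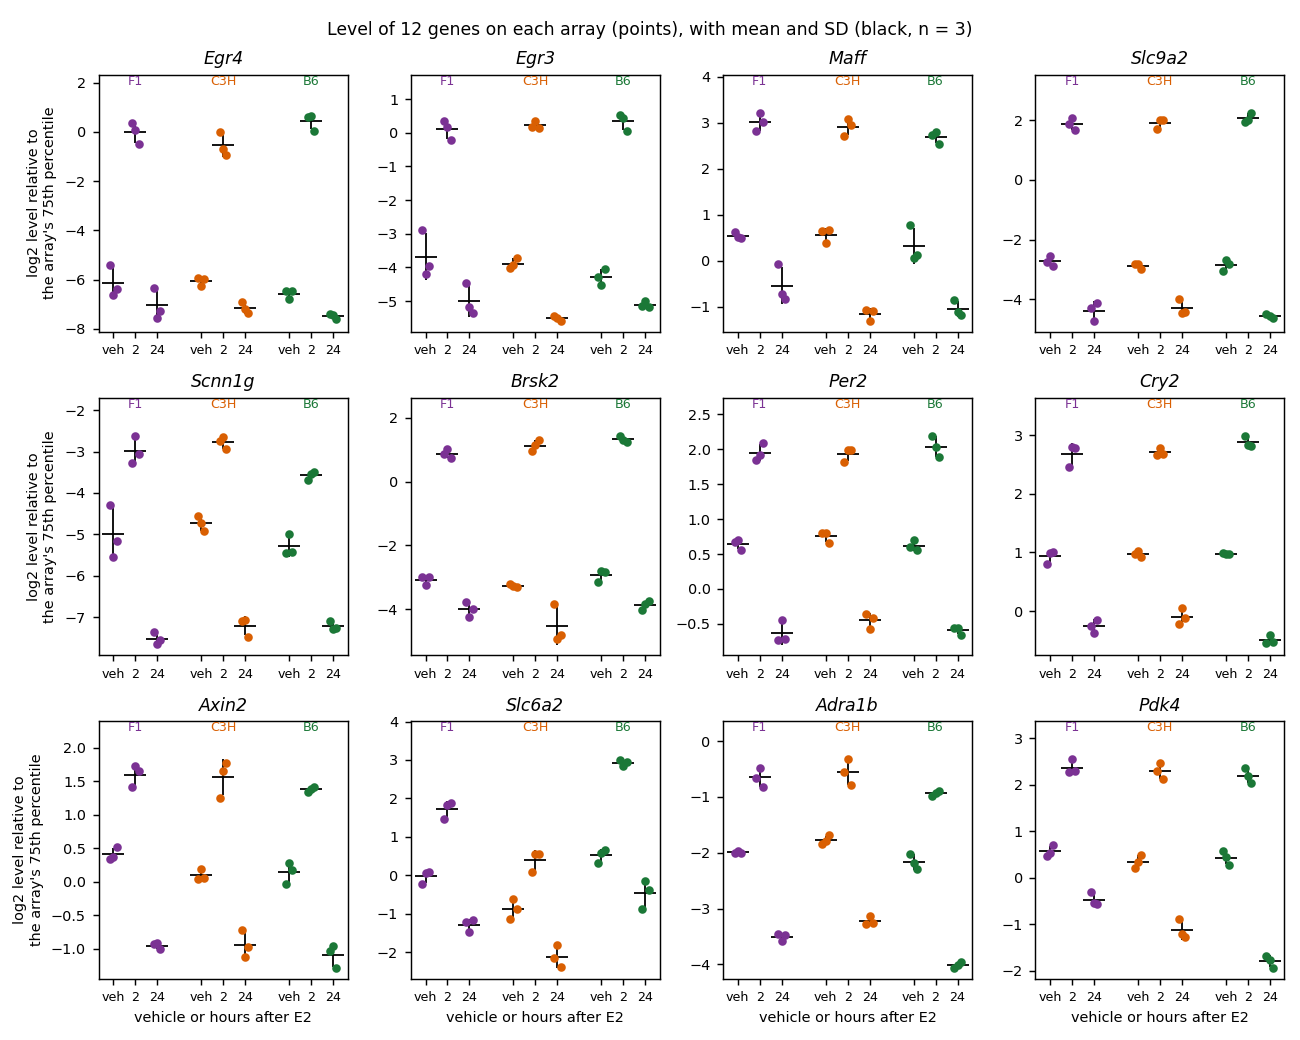
Log2 level relative to the array's 75th percentile of 12 genes on each array (points, coloured by strain) for vehicle (veh) and 2 and 24 hours after E2; black bars are the mean and SD of 3 arrays. The 2 h points stand above the vehicle points in every panel and the 24 h points below or at their lower edge; Slc6a2 is ordered B6, F1, C3H from high to low at every stage, and Pdk4 at 24 h is ordered F1, C3H, B6.

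Pdk4, the kinase that shuts pyruvate out of the mitochondrial citric acid cycle, followed the same course with a strain-dependent late level. In F1 it was 0.48, 0.53 and 0.70 in vehicle, 2.28, 2.54 and 2.29 at 2 h and -0.30, -0.55 and -0.57 at 24 h. C3H uteri gave 0.21, 0.34 and 0.49 in vehicle, 2.30, 2.46 and 2.11 at 2 h and -0.90, -1.22 and -1.28 at 24 h. B6 uteri gave 0.57, 0.45 and 0.28 in vehicle, 2.35, 2.19 and 2.03 at 2 h and -1.68, -1.76 and -1.95 at 24 h. Vehicle and 2 h arrays overlapped between strains, whereas at 24 h the 3 strains were separate.

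Pdk4 is also a glucocorticoid-induced gene, the 1 gene of the group in a list of 18 such genes, 17 of them measured. At 2 h 9 of the 17 were higher and 2 lower in F1, 10 and 3 in C3H and 9 and 2 in B6. That is 52.9% to 58.8% higher, against 22.7% to 23.9% of all genes, and 11.8% to 17.6% lower, against 33.9% to 37%. At 24 h 5 were higher and 8 lower in F1, 5 and 8 in C3H, and 4 and 10 in B6, or 23.5% to 29.4% higher, against 26.9% to 31.4% of all genes, and 47.1% to 58.8% lower, against 37.1% to 40.4%. Tsc22d3 (GILZ), a classical glucocorticoid target, went the other way at 2 h (-1.52, -1.48 and -1.56). Dio3, the deiodinase that inactivates thyroid hormone, rose by 2.12, 1.92 and 2.18 and stood at -1.04, -1.25 and -0.90 at 24 h.

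Axin2, a feedback inhibitor and standard readout of canonical WNT signalling, rose by 1.19, 1.46 and 1.24 and stood at -1.36, -1.04 and -1.23 at 24 h (SE 0.12). In B6 its level was -0.03, 0.28 and 0.17 in vehicle, 1.35, 1.38 and 1.42 at 2 h and -1.03, -0.95 and -1.29 at 24 h, with no overlap between the groups. The WNT list, 41 measured genes of 42, had 11 higher and 20 lower at 2 h in F1, 9 and 21 in C3H and 11 and 19 in B6. The shares were 22% to 26.8% higher, near the 22.7% to 23.9% of all genes, and 46.3% to 51.2% lower, against 33.9% to 37%. Other feedback inhibitors of the pathway were lower at 2 h: Rnf43 stood at -2.15, -2.05 and -1.83, Znrf3 at -1.03, -1.13 and -0.91 and Nkd2 at -1.68, -1.84 and -1.63. At 24 h 29, 31 and 31 genes of the list were lower, and 3, 3 and 4 higher. The share called lower, 70.7% to 75.6%, stood against 37.1% to 40.4% of all genes, and it held Axin2, Lef1 (-1.58, -1.93 and -1.69) and Notum (-2.81, -3.13 and -2.94).

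Genes known from neurons and synapses formed the second largest set by role, with 8 named genes. Brsk2, a kinase that sets neuronal polarity, rose by 3.95, 4.39 and 4.25 in F1, C3H and B6 (SE 0.20), its vehicle arrays lying between -3.31 and -2.81 and its 2 h arrays between 0.74 and 1.43. It stood at -0.93, -1.25 and -0.95 at 24 h, and another of its probes met both limits. Caskin1, a synaptic scaffold protein, rose by 3.20, 3.14 and 3.12 and was not well above background on any 24 h array, a fall of at least 1.41-fold in F1, 2.07-fold in C3H and 2.04-fold in B6.

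Elavl3, a neuronal RNA-binding protein, rose by 1.63, 1.67 and 2.63 and fell at least 3.16-fold in F1 and 4.57-fold in C3H. Its vehicle arrays were the most scattered of the named genes given here, from -5.71 to -4.01 in F1. Nxph3, a neurexin ligand, rose by 2.56, 2.55 and 2.84, and Ndnf, a secreted neurotrophic factor, by 2.28, 1.76 and 2.47. Doc2b, a calcium sensor of vesicle release, Ncald, a neuronal calcium sensor, and Tafa3, a small secreted protein of brain, rose by 1.08 to 1.66.

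Markers of neurons and glia did not move that way at 2 h. Of 6 such markers, Tubb3, Stmn2 and S100b among them, 1 passed the test as higher and 5 as lower at 2 h in F1, 0 and 5 in C3H and 0 and 5 in B6 (83.3% lower, against 33.9% to 37% of all genes). At 24 h 1 was higher and 4 lower in F1, 0 and 5 in C3H and 1 and 5 in B6. That is 66.7% to 83.3% lower, against 37.1% to 40.4% of all genes, the same direction as the group at 24 h. The summed level of the 6 markers, linear and relative to the 75th percentile, was 1.09 to 1.32 in F1 vehicle arrays, 0.663 to 0.781 at 2 h and 0.683 to 0.780 at 24 h. It was 1.26 to 1.41, 0.812 to 0.911 and 0.781 to 0.898 in C3H, and 1.13 to 1.35, 0.855 to 0.880 and 0.727 to 0.750 in B6. All 6 were well above background on every array of at least 1 group, and no marker of the 16 cell type lists was among the 87 genes.

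Sums of other cell types also moved. Epithelial markers summed to 137 to 162 in F1 vehicle arrays, 100.2 to 130 at 2 h and 270 to 313 at 24 h. At 24 h 9 of the 12 passed the test as higher in each strain (75%, against 26.9% to 31.4% of all genes). The other 3 passed as lower in each strain (25%, against 37.1% to 40.4%). Of the stromal markers 10 of 12 fell at 2 h in each strain (83.3%, against 33.9% to 37%). Their part in the changes of the 87 genes was not tested.

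Genes of the cytoskeleton and adhesion were led by Tlnrd1, an actin-bundling protein related to talin. It rose by 3.20, 3.15 and 3.42 in F1, C3H and B6 and stood at -1.03, -1.08 and -0.98 at 24 h (SE 0.08), with 2 h arrays between 3.96 and 5.24 and vehicle arrays between 0.86 and 1.76. A dimmer Tlnrd1 probe stood above vehicle at 24 h, at 0.28, 0.34 and 0.34. Actn2, the alpha-actinin of muscle Z-discs, Synpo2, which bundles actin in muscle, Mical3, an actin-oxidising enzyme, and Whrn, a scaffold of hair cell stereocilia, rose by 0.98 to 2.22 and stood at -1.60 to -0.84 at 24 h. The remaining named enzymes, the survival kinase Pim1 and the serine protease Htra3, rose by 0.91 to 1.18 and stood at -1.51 to -0.95, though another Pim1 probe stood at 0.38, -0.11 and -0.09 at 24 h.

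**Figure D4:**
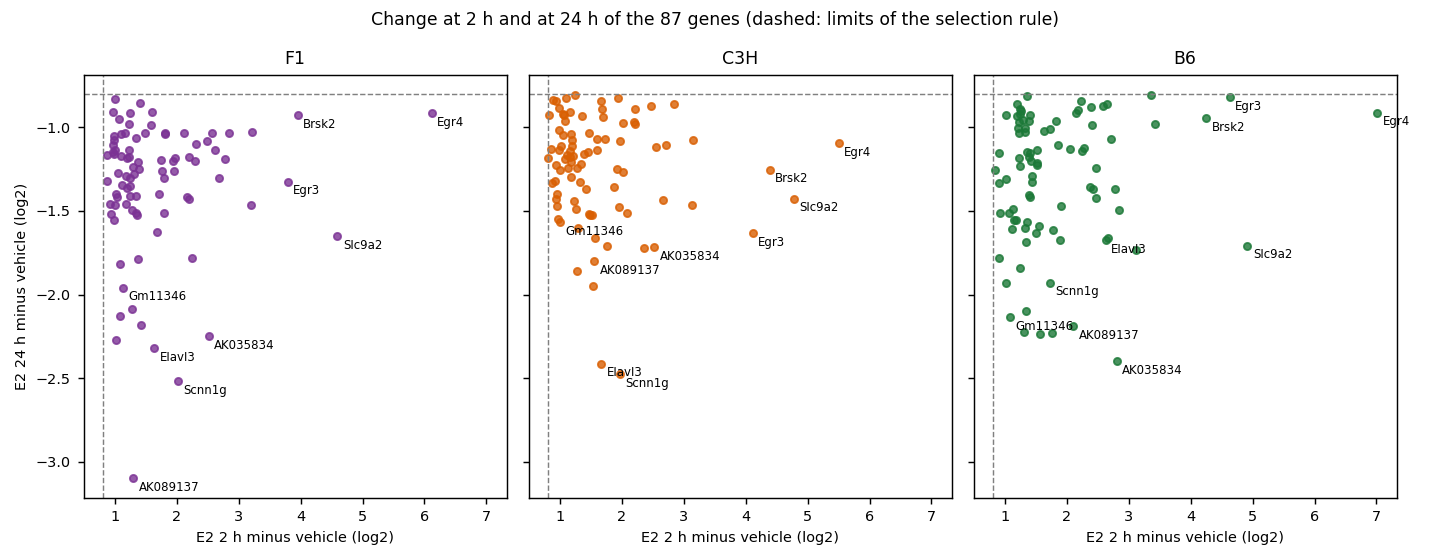
Each point is 1 of the 87 genes in F1, C3H or B6 uterus, with the change at 2 h on the x axis and the change at 24 h on the y axis (log2, E2 minus vehicle); dashed lines are the limits of 0.8 and -0.8. Most genes lie below 3 on the x axis; Egr4, Slc9a2, Egr3 and Brsk2 reach far to the right in each strain, and AK089137 lies lowest in F1 at -3.10.

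Unnamed transcripts were frequent. No RefSeq name was found for 39 of the 87 genes (44.8%), against 23.2% of all genes. Of these, 29 (33.3% of the 87, against 8.44%) carry a cDNA accession of the AK series. The 39 unnamed transcripts rose by a median of 1.21 log2 over strains, and the named genes by 1.605. At 24 h the median change of the unnamed transcripts was -1.21, against -1.24 for the named genes. AK089137 had the most negative 24 h change in F1, at -3.10, with -1.80 in C3H and -2.19 in B6. The most negative change was that of Scnn1g in C3H (-2.47) and of AK035834 in B6 (-2.40). In F1 and B6 AK089137 was not well above background on any 24 h array, so it was at least 3.18-fold lower in F1 and 3.36-fold lower in B6.

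AK035834 had the fifth largest swing, with rises of 2.51, 2.52 and 2.80 and late changes of -2.25, -1.72 and -2.40 (SE 0.18). By the mm7 probe positions in the files, the nearest named gene on its strand was Mtcl1, a microtubule cross-linking protein, with a probe 22.4 kb away. Mtcl1 rose by 4.65, 4.58 and 4.37 at 2 h yet changed by only -0.04, -0.16 and -0.46 at 24 h. AK041888, 0.151 kb from a probe of Angptl2, a secreted angiopoietin-like protein, changed by 2.24, 1.87 and 2.66 and then by -1.78, -1.36 and -1.66. Angptl2 changed by 1.80, 1.74 and 1.98 at 2 h and by -0.46, -0.33 and -0.79 at 24 h.

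Of the unnamed transcripts, 31 had a named gene on the same strand within 100 kb. Of those neighbours, 17 (54.8%) were up by at least 0.8 in all 3 strains at 2 h, against 6.77% of all genes, and 1 (3.23%), Ndnf, itself in the group, was down by 0.8 at 24 h in all 3, against 13%. Without Ndnf, whose changes the limits fix at both times, 16 of 30 (53.3%) were up at 2 h and 0 down at 24 h. On the other strand 1 of 21 neighbours (4.76%) was up. Named examples are C030015A19Rik, 6.32 kb from Zxdc (3.21, 3.52 and 2.90 at 2 h, then -0.15, 0.11 and -0.13), and AK040902, 11.2 kb from the ubiquitin ligase gene Rnf19b (2.45, 2.46 and 2.19, then 0.16, 0.15 and -0.54). Neighbours were counted after values had been seen, so the count is a description.

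Pairs of the group also lay side by side on mm7, and whether they belong to 1 transcript was not tested: AK048968 with NAP054284-1 on chromosome 19 (6.11 kb apart), Ndnf with AK086961 on chromosome 6 (7.63 kb), and AK053079 with AK087765 on chromosome 1 (19.5 kb). Among other probes of the same genes, 31 probes of 25 genes passed the filter, 23 had a rise and a fall in every strain, and 4 met both limits, those of Brsk2, Whrn, Cry2 and Htra3. The 8 without both signs were 1 each of Slc9a2, Tlnrd1, Usp31, Cck, Per2, Arid4a, Synpo2 and Pim1.

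The limits ask for a change in every strain but not for an equal one, so differences between strains were tested with limma (moderated linear model, Benjamini-Hochberg adjusted over all 22081 genes). The study asks how far genotype sets the response of the uterus. In vehicle, 17 of the 87 genes (19.5%) differed between C3H and B6, 8 higher and 9 lower in C3H, where 24.3% of all genes did (13.3% higher and 11% lower). The share is thus not above that of all genes. The B6 vehicle arrays shared a slide and the C3H vehicle arrays another. These slides are linked only through B6 E2 arrays, and slide as a fixed term was not fitted for this difference.

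The largest vehicle difference was in Slc6a2, lower by 1.40 log2 in C3H than in B6 (difference -1.40, SE 0.19, adjusted p = 6.96e-06, limma), with all C3H arrays below all B6 arrays. Tlnrd1 was lower in C3H too (-0.70, SE 0.08, adjusted p = 7.84e-07), as were the RIKEN gene 4931406H21Rik (-0.96), AK035834 (-0.65) and Ncald (-0.47). Higher in C3H were AK048968 (0.99), AK045221 (0.88), Slc35f3 (0.58), Pou3f1 (0.54), Ndnf (0.42) and Adra1b (0.39, SE 0.10, adjusted p = 0.00473). Qrfprl also passed with -0.93, yet it was not well above background on any vehicle array, and no fold is given.

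The early response differed between C3H and B6 in 6 of the 87 genes (6.9%; 2 with a larger and 4 with a smaller change in C3H), against 2.28% of all genes (0.774% and 1.5%). The rise was smaller in C3H for Slc6a2 (1.26 in C3H, 2.41 in B6; difference -1.15, SE 0.26, adjusted p = 0.0227, limma), for AK053596 (-0.86), Ndnf (-0.71) and TC1435793 (-0.55). It was larger in C3H for C030015A19Rik (0.69) and for Slc43a2 (2.85 in C3H, 2.24 in B6; difference 0.60, SE 0.14, adjusted p = 0.0233). For Slc43a2 the 2 h arrays read 0.54, 0.90 and 0.65 in C3H and 0.42, 0.35 and 0.30 in B6. For Ndnf they read -1.53, -1.71 and -1.45 in C3H and -1.34, -1.16 and -1.31 in B6, while vehicle was higher in C3H. The difference in the rise of Egr4 (-1.52, SE 0.45) missed the threshold (adjusted p = 0.0847). Leaving out 1 array left between 2 and 7 of the 87 genes called. In C3H the vehicle arrays and the E2 arrays were on separate slides. Slide and strain therefore cannot be told apart in these differences between responses.

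The late response differed in 9 genes (10.3%), against 18.7% of all genes, and here too slide and strain cannot be told apart. In 8 of the 9 the change was less negative in C3H, where 5.71% of all genes had a positive difference and 13% a negative one. Pdk4 changed by -1.48 in C3H and -2.23 in B6 (difference 0.75, SE 0.18, adjusted p = 0.0058, limma). Doc2b changed by -1.24 in C3H and -2.10 in B6 (0.85, SE 0.24, adjusted p = 0.0172), with only 1 of 3 B6 arrays well above background at 24 h. AK078992 (0.86), Gm11346 (0.57), Pim1 (0.47), Cry2 (0.40), Htra3 (0.40) and Adra1b (0.40) had the same direction. Cck was the exception, with -1.66 in C3H and -1.14 in B6 (-0.52, SE 0.15, adjusted p = 0.018), its 24 h arrays reading -5.71, -5.89 and -5.83 in C3H and -5.65, -5.48 and -5.52 in B6. With the mean of all probes in place of the brightest, the difference of Adra1b was -0.05.

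**Figure D5:**
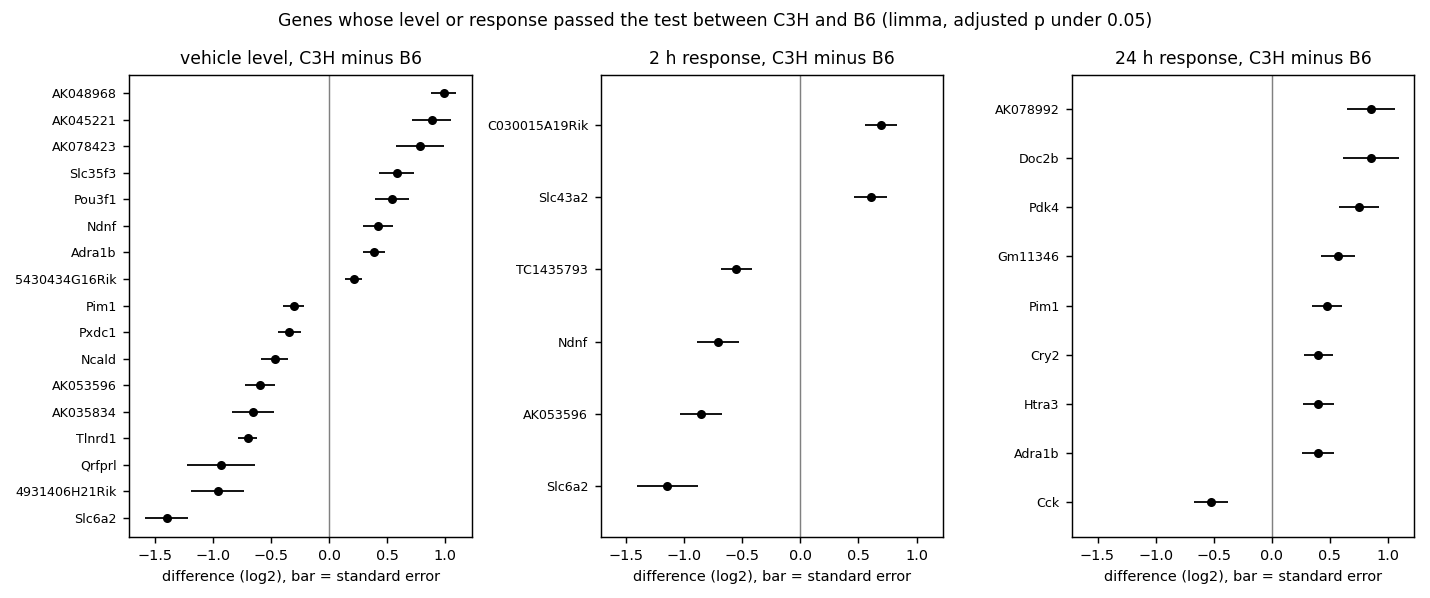
Difference between C3H and B6 (log2, C3H minus B6; bars are limma standard errors) of the genes among the 87 that passed the test in vehicle level (17 genes), 2 h response (6) and 24 h response (9). Slc6a2 stands lowest in the left and middle panels, at -1.40 and -1.15, and in the right panel Cck alone lies below 0. In the middle and right panels slide and strain cannot be told apart.

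The hybrid was set against the mean of its parents, and slide cannot be told apart from these differences. In vehicle 1 gene (1.15%) passed, against 5.34% of all genes: Mlxipl was higher by 0.43 in F1 than at the mid-parent level (SE 0.10, adjusted p = 0.0124, limma), with arrays at -0.57, -1.03 and -0.88 in F1, -1.28, -1.59 and -1.31 in C3H and -1.07, -0.96 and -1.29 in B6. For the 2 h response 0 genes passed limma's test, where 0.0815% of all genes did, and 6 had an unadjusted p under 0.05. For the 24 h response AK089137 alone passed, against 0.0498% of all genes, with a difference of -1.10 (SE 0.20, adjusted p = 0.0495), and 11 had an unadjusted p under 0.05. AK089137 was not well above background at 24 h in F1 and B6, and its call was lost under most other settings. Pdk4 at 24 h came next, its change less negative in F1 than the mid-parent value by 0.81 (SE 0.15, adjusted p = 0.0567).

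The arrays of a slide are among those whose means selected the 87 genes, so values within slides are a description whose direction the limits largely fix. On the slide that held 1 B6 array at 2 h and 3 of B6 vehicle, all 87 genes were higher at 2 h, with a median of 1.48. On the slide with 3 F1 arrays at 2 h and 1 of F1 vehicle, 87 were higher, with a median of 1.39. Between 24 h and 2 h, 87 of 87 were lower within a B6 slide (median -2.91) and within a C3H slide (median -2.61). For E2 against vehicle in C3H, and for 24 h against vehicle in F1, slide and treatment cannot be told apart.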

How the data were processed

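RNA of whole uterus was labelled with Cy3 from 500 ng total RNA and measured on Agilent 1-colour mouse arrays. The files deposited are scanner output, in intensity units; per the file headers, the processed intensity taken here had background subtracted and was detrended within an array, low spots held a surrogate value, and arrays were not scaled to each other. Agilent Feature Extraction 9.5 is named in the submitters' processing notes. The deposited series matrix gave these same intensity values on 27 of 27 arrays and served as an unscaled alternative.

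Of 45018 spots on an array, 1639 controls and 48 to 117 outliers were dropped, and 0 to 8 saturated spots kept. The measure was the log2 processed intensity after subtracting the 75th percentile of its array, averaged over the spots of a probe (41174 probes). A probe entered if every array of some group, of the 9, marked it well above background (32898 did), and a gene was read from its brightest probe (22081 genes, 7411 with several probes, 46 lacking a value on some array). Where no array of a group was well above background, a fold is a bound, written "at least". The dim side of the bound is then the lowest signal that counted as well above background on each array, or the probe's own signal where that is higher, averaged over arrays. No probe's level is set against another probe's.

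Differences and standard errors (SE) come from 1 model of the 9 group means on all 27 arrays, fitted with limma 3.58.1 (18 degrees of freedom from the residuals and 1.95 from the prior) under R 4.3.3 and data.table (release 1.17.8), and tested on simulated data first. Calls are at a Benjamini-Hochberg adjusted p under 0.05. RefSeq names (GRCm38.p6) were found by accession for 22951 probes, by symbol for 6659 and by synonym for 3109, and 8455 kept the file's name. Probe coordinates are on mm7, per the file headers, and promoters are RefSeq's on GRCm38.p6. Other steps used Python 3.11.15, with pandas 2.3.3, numpy 2.4.6 and matplotlib 3.10.9.

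The genes and the gene lists were chosen with earlier results of these data known. Genes were named by rule: the 12 with the largest difference between 2 h and 24 h, those in the lists, up to 5 called genes of each contrast by size, the 3 nearest either side of the limits, and sets of 3 or more with a shared role. Further called genes, genes outside the group and neighbours were named after their values were seen. Alternatives were other scalings (quantile, median, unscaled), normexp background correction, other probe rules, outlier spots kept, slide and replicate blocks, and leaving out each array; the unscaled values and a second normexp fit were added after seeing the data. Replicate numbers did not pair samples, since correlations of same-numbered deviations ran from -0.12 to 0.17. A few genes are not reported here by name, though counts over lists include them.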

Additional observations from a re-analysis of the deposited data

Results flagged for a closer look

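Responses that differed between strains by a test of the difference itself (limma, adjusted p under 0.05) are given as values, in log2, with no explanation. Slide cannot be told apart from strain in any of them. At 2 h the rise was smaller in C3H than in B6 for Slc6a2 (-1.15), AK053596 (-0.86), Ndnf (-0.71) and TC1435793 (-0.55), and larger for Slc43a2 (0.60) and C030015A19Rik (0.69). At 24 h the change was more negative in C3H than in B6 for Cck (-0.52). It was less negative in C3H for Adra1b (0.40), Htra3 (0.40), Cry2 (0.40), Pim1 (0.47), Gm11346 (0.57), Pdk4 (0.75), Doc2b (0.85) and AK078992 (0.86). For Pim1 and Adra1b the vehicle level also differed between the strains (-0.31 and 0.39, C3H minus B6), and that difference shares its vehicle arrays with the response. The 24 h change of AK089137 was more negative in F1 than at the mid-parent value (-1.10), with no F1 or B6 array well above background at 24 h.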

How the results depend on the processing

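The 87 genes became 22 under normexp background correction and 33 after leaving out spots more than 50 units below their local background, of which 19 and 33 were among the 87. Under plain normexp 1 to 16 such spots on 7 arrays set the fitted background between -944 and -23.0, against -7.92 to 0.945 on the others. Both normexp fits also added an offset of 50 units to every signal before log2, and its part in these counts was not tested. Quantile normalization gave 69 genes, median centring 58, the mean of probes 80 and unscaled values 86, with 55, 43, 74 and 60 shared, and leaving out 1 array gave 84 to 93. All 87 kept both directions under quantile, median and no scaling, whereas under normexp 61 in F1 and 68 in C3H kept the rise at 2 h and 68 in C3H the fall at 24 h (86 in F1 kept the rise in the second normexp fit); median centring moved the all-gene median at 24 h in B6 to 0.18, from -0.06.

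Counts of called genes, with leave-one-out ranges, were as follows. In vehicle, C3H minus B6 gave 17 (13 to 19; normexp 2) and F1 minus mid-parent 1 (normexp 0; 0 to 3, with 3 without B6 vehicle replicate 1, 2 without F1 vehicle replicate 2 and 0 without F1 vehicle replicate 1). At 2 h, C3H minus B6 gave 6, against 2 unscaled, 0 with normexp and 10 with the second normexp fit. It ranged from 2 to 7 on leaving out 1 array, with 2 without B6 vehicle replicate 1 and 3 without B6 E2 2 h replicate 1 or 2 or C3H vehicle replicate 1 or 2. F1 minus mid-parent at 2 h gave 0 throughout. At 24 h, C3H minus B6 gave 9 (6 to 13), against 5 with the mean of probes, 0 with normexp and 4 with the second fit. F1 minus mid-parent at 24 h gave 1 (0 to 2), against 2 with quantile and 0 unscaled, with no filter, with either normexp fit and with slide as a random block; AK089137 was called in 11 of 37 settings.

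With the replicate number as a block the counts were 17, 1, 7, 0, 9 and 0, and that lost AK089137 alone. Differences that changed sign were Adra1b at 24 h (-0.0536, mean of probes), Cck at 24 h (0.55, normexp) and Qrfprl in vehicle (0.0430, normexp). The cause was not tested. Calls of Adra1b at 24 h, Ndnf at 2 h and Htra3 at 24 h held in 12, 18 and 22 of 37 settings, and those of Slc6a2 in vehicle and Pdk4 at 24 h in 37 and 36. Signal over background limits the late falls: of 16, 11 and 11 genes not well above background on any 24 h array in F1, C3H and B6, a fall was bounded for only 8, 7 and 7.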
